A study of Arabidopsis thaliana with 36 samples.

Results

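UVR8 is the photoreceptor through which plants sense UV-B, and the comparison described here is between *uvr8-6* mutant seedlings and wild type (Col) when no UV-B was added. The 3 libraries of *uvr8-6* (*uvr8*) in white light (WL) were set against the 3 wild-type libraries in WL, 6 of the 36 libraries of the series. All 20926 genes that the authors kept after filtering were tested, of 33602 in the table of raw counts. Seedlings of both genotypes were 7 days old and had grown without interruption under white light of 60 µmol m-2 s-1 on sucrose-containing medium, each sample being RNA from 30 whole seedlings taken from separate plates. The other genotype, *hfr1-101* (*hfr1*), lacks a transcription factor of the shade response, and the other light conditions were 3 h of added far-red light (+FR), added UV-B (+UVB) or both (+FR+UVB). All 3 genotypes are in the Col accession, and *uvr8-6* and *hfr1-101* are 1 allele each. An effect of the allele therefore cannot be told apart from any other difference between the seed lines.

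In the absence of UV-B, UVR8 is a homodimer and is held to be inactive. Absorption of UV-B splits the dimer into monomers that bind the E3 ubiquitin ligase COP1, so that targets of COP1 such as the transcription factors HY5 and HYH accumulate and activate flavonol synthesis, photolyases and other UV-B acclimation genes. RUP1 and RUP2 return UVR8 to the dimer. The comparison in WL asks how the transcriptome differs when the receptor is missing but its stimulus is not given.

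*UVR8* (AT5G63860) lies on chromosome 5 at chr5:25554416-25559499 on the minus strand of the TAIR10.1 assembly. The mutant line was genotyped by the study with a pair of gene-specific primers, shown here because they place the tested site within the gene. Both matched the genome at a single position and enclosed 1258 bases. The forward primer, chr5:25555946-25555962 on the minus strand, lies in an intron, and the reverse primer, chr5:25554705-25554722 on the plus strand, lies in a transcribed but untranslated exon.
forward primer: aggagtgatatgcattc
reverse primer: tcccaaactagacagacg

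The level of *UVR8* itself is a check of the labels. Levels are given as CPM, counts per 1000000 after scaling by edgeR's TMM factors. *UVR8* stood at 14.1, 17.0 and 13.1 CPM in the *uvr8* libraries and at 84.6, 86.2 and 88.9 CPM in wild type, without overlap. Over all light conditions the 12 *uvr8* libraries lay between 12.2 and 17.0 CPM and the 24 libraries of wild type and *hfr1* between 65.6 and 110 CPM. *UVR8* was called lower, at -2.55 on the log2 scale with an SE of 0.09 (adjusted p = 3.0e-18), so that transcripts counted on the gene were reduced and not absent.

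The 6 libraries held between 15472732 and 19830007 counts, and 3 counts, taken as the floor of detection, correspond to 0.144 to 0.190 CPM. The second *uvr8* library stood apart. The summed level of 12 seed storage and oleosin markers was 183 CPM in it, against 1.81 and 1.34 CPM in the other *uvr8* libraries and 1.52, 1.72 and 9.96 CPM in wild type. Transcripts of 18 salicylic acid defence genes were also high there, at 334 CPM against 100 to 191 CPM in the other 5 libraries. The third wild-type library stood apart as well, with a summed level of hypoxia genes of 516 CPM against 238 and 184 CPM in the other wild-type libraries, and of abscisic acid genes of 1792 CPM against 977 and 1066 CPM. Transcripts encoded in the organelles made up 0.0296 to 0.107% of counts in *uvr8* and 0.263 to 0.372% in wild type, without overlap. In +FR this share overlapped between the genotypes, at 0.0584 to 0.231% in *uvr8* and 0.0338 to 0.158% in wild type. It ran from 0.0951 to 2.29% among the *hfr1* WL libraries. A fit to nuclear genes alone called all 36 of the genes described next. In whole seedlings, fewer cells of a type and less RNA per cell cannot be told apart.

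Few genes were called between *uvr8* and wild type in WL. With edgeR's quasi-likelihood test and Benjamini-Hochberg adjustment, 36 genes passed an adjusted p of 0.05 (0.172% of those tested), of which 21 were higher in *uvr8* (0.1%) and 15 lower (0.0717%). With a fold change over 2 in addition, 22 genes remained (0.105%), 10 higher and 12 lower. At an unadjusted p of 0.05 there were 1423 genes (6.8%), 744 higher and 679 lower, and the median log2 fold change of all genes was 0.0028. The 3 libraries of each genotype did not overlap for any of the 36 genes, whereas this held for 14.7% of all genes tested. Of the 36, 31 are protein-coding and 5 (13.9%) are annotated as pseudogenes or non-coding RNA, beside 2.69% of the 20814 tested genes with an annotated type that are not protein-coding. The number rested on the libraries used, being 15, 27 and 15 without wild-type library 1, 2 and 3, 20, 12 and 16 without *uvr8* library 1, 2 and 3, and 11 when these 6 libraries were fitted alone, 9 of them among the 36. The 11 genes called with any 1 of the 6 libraries left out were *UVR8*, *MRD1*, *HEI10*, *AT5G35940*, *AT1G67105*, *CYP702A5*, *MAF4*, *AT2G01755*, *SADHU3-2*, *AT5G28335* and *AT5G35935*.

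**Figure D1:**
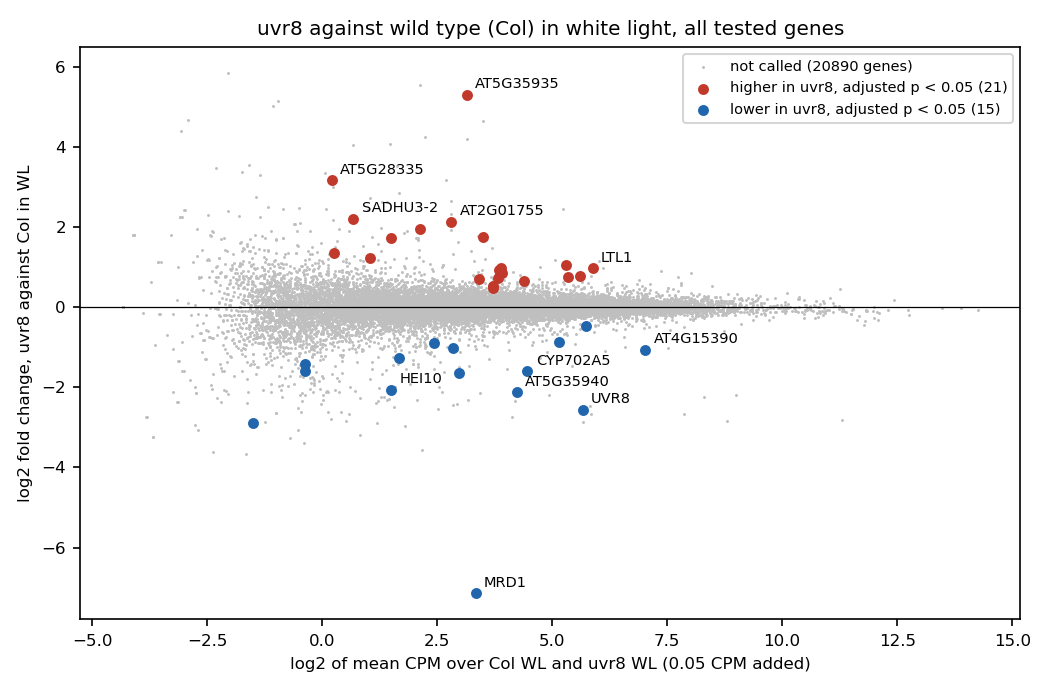
Each point is 1 of the 20926 tested genes, with the log2 of its mean CPM over both genotypes on the x axis (0.05 CPM added) and the log2 fold change of *uvr8* against Col in WL on the y axis. The 21 higher and 15 lower genes at an adjusted p under 0.05 are coloured, and *MRD1* at -7.14 and *AT5G35935* at 5.31 lie farthest from 0 among them.

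The largest fall was that of *MRD1* (AT1G53480), a gene first named for its lower expression in a methionine-accumulating mutant. It measured 0.110, 0.149 and 0.144 CPM in *uvr8*, or 2 to 3 counts a library, and 19.3, 20.4 and 20.1 CPM in wild type, or 304 to 370 counts. Wild type exceeded *uvr8* by a ratio of 148, with a 95% interval of 74.8 to 344 (exact Clopper-Pearson, covering counting error only), and the adjusted p was 2.0e-16. In *hfr1* the level was 22.7, 18.9 and 19.2 CPM, overlapping wild type. The 12 *uvr8* libraries of all light conditions held 0 to 0.397 CPM and the 12 wild-type libraries 18.23 to 23.9 CPM.

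*MRD1* shares its place in the genome with *HEI10* (AT1G53490), which encodes a RING-finger protein needed for meiotic crossovers. *MRD1* spans chr1:19963047-19964712 on the minus strand and *HEI10* chr1:19963267-19966952 on the plus strand, with 1446 bases in common. The paper names a stranded library kit, but the strand setting used in counting is not given in the sources used here. Whether reads of the one gene were counted on the other is therefore not known. *HEI10* measured 1.04, 1.44 and 0.767 CPM in *uvr8* and 3.17, 5.23 and 5.12 CPM in wild type, and fell by 2.06 ± 0.23 on the log2 scale (adjusted p = 6.7e-06). The groups did not overlap, and *hfr1* stood at 4.64, 4.598 and 4.39 CPM beside wild type. *MUM4*, the next gene along the chromosome and a rhamnose synthase of seed mucilage, gave a log2 fold change of 0.13 (adjusted p = 0.75). The 250 bases before the start of *MRD1* (chr1:19964713-19964962, minus strand) are printed because this is the locus of the largest fall. They lie inside *HEI10* and include none of its annotated exon bases.
MRD1 upstream: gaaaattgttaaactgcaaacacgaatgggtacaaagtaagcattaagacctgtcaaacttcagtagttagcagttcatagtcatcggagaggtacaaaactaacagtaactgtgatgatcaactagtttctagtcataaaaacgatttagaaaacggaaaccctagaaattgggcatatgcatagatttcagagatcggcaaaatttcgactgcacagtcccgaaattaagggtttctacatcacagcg

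A second locus held a fall and the largest rise side by side. *AT5G35935*, annotated as a pseudogene (chr5:14083388-14089891, minus strand), measured 19.2, 15.3 and 17.1 CPM in *uvr8* and 0.507, 0.402 and 0.381 CPM in wild type, a log2 fold change of 5.31 ± 0.22 (adjusted p = 2.0e-16). Its neighbour *AT5G35940*, a gene of the mannose-binding lectin family (chr5:14090574-14093007, plus strand), starts 682 bases away and is read in the other direction. It measured 7.56, 5.55 and 7.82 CPM in *uvr8* and 30.2, 25.4 and 35.8 CPM in wild type, and fell by 2.13 ± 0.31 on the log2 scale (adjusted p = 4.0e-04). The *hfr1* seedlings had 18.7, 18.5 and 18.4 CPM of *AT5G35935* and 8.76, 6.22 and 7.26 CPM of *AT5G35940*, levels close to those of *uvr8* and apart from wild type. The wild-type libraries are the same in both sets of values, so these are levels side by side and not a second test. In wild type *AT5G35940* ran from 5.68 to 35.8 CPM over all light conditions, and *AT5G35935* stayed between 0 and 0.528 CPM. The upstream windows of both genes face each other across the 682 bases that part them, and are shown for that reason. Capitals mark the L1 box described below, on the opposite strand of the first window.
AT5G35935 upstream, chr5:14089892-14090141, minus strand: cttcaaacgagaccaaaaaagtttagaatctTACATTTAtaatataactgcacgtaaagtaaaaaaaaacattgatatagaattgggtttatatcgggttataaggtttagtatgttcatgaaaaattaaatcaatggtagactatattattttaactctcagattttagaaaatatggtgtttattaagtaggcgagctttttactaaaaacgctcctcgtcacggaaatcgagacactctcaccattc
AT5G35940 upstream, chr5:14090324-14090573, plus strand: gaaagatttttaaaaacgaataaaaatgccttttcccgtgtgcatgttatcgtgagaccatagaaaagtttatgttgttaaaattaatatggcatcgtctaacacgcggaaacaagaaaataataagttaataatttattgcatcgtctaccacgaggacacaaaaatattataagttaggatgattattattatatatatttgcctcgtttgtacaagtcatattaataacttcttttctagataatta

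*SADHU3-2* (AT3G42658), of a family of non-coding retrotransposons, measured 2.74, 2.93 and 2.01 CPM in *uvr8* and 0.761, 0.402 and 0.490 CPM in wild type, a log2 fold change of 2.21 ± 0.27 (adjusted p = 2.2e-05). In *hfr1* it was higher than in either, at 9.40, 9.98 and 9.51 CPM. *AT5G28335*, a pseudogene, measured 2.41, 1.98 and 1.58 CPM in *uvr8* and 0.190, 0.345 and 0.109 CPM in wild type, a log2 fold change of 3.18 ± 0.51 (adjusted p = 0.0019). Wild type was near the floor with 2 to 6 counts a library, *hfr1* was at 0.317, 0.261 and 0.112 CPM, and 75.6% of the 31-base words in this gene occur elsewhere in the genome, so its reads may be shared with copies. *AT2G01755* encodes an uncharacterized protein and lies wholly within *MAP70-3* on the other strand. It measured 12.4, 9.22 and 12.4 CPM in *uvr8* and 1.90, 2.76 and 3.05 CPM in wild type, a log2 fold change of 2.13 ± 0.23 (adjusted p = 2.9e-06), with 8.76, 10.6 and 9.73 CPM in *hfr1*. The enclosing gene *MAP70-3*, which encodes a microtubule-associated protein, gave 0.21 (adjusted p = 0.79).

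*AT1G67105*, a non-coding RNA, was lower in *uvr8* at 4.11, 3.87 and 3.36 CPM, against 13.9, 8.73 and 13.01 CPM in wild type, by a log2 fold change of -1.65 ± 0.22 (adjusted p = 1.4e-04). It was lower still in *hfr1*, at 1.79, 1.67 and 2.31 CPM. *AT3G42806*, a pseudogene, gave -0.89 (adjusted p = 0.045), with 3.07 to 4.36 CPM in *uvr8* and 6.48 to 7.41 CPM in wild type, and 18.8% of its 31-base words occur elsewhere. Its call was lost when any 1 of the 6 libraries was left out, with an adjusted p of up to 0.30 without the second *uvr8* library. The *hfr1* level of *AT3G42806* was 3.48 to 4.49 CPM, below wild type.

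**Figure D2:**
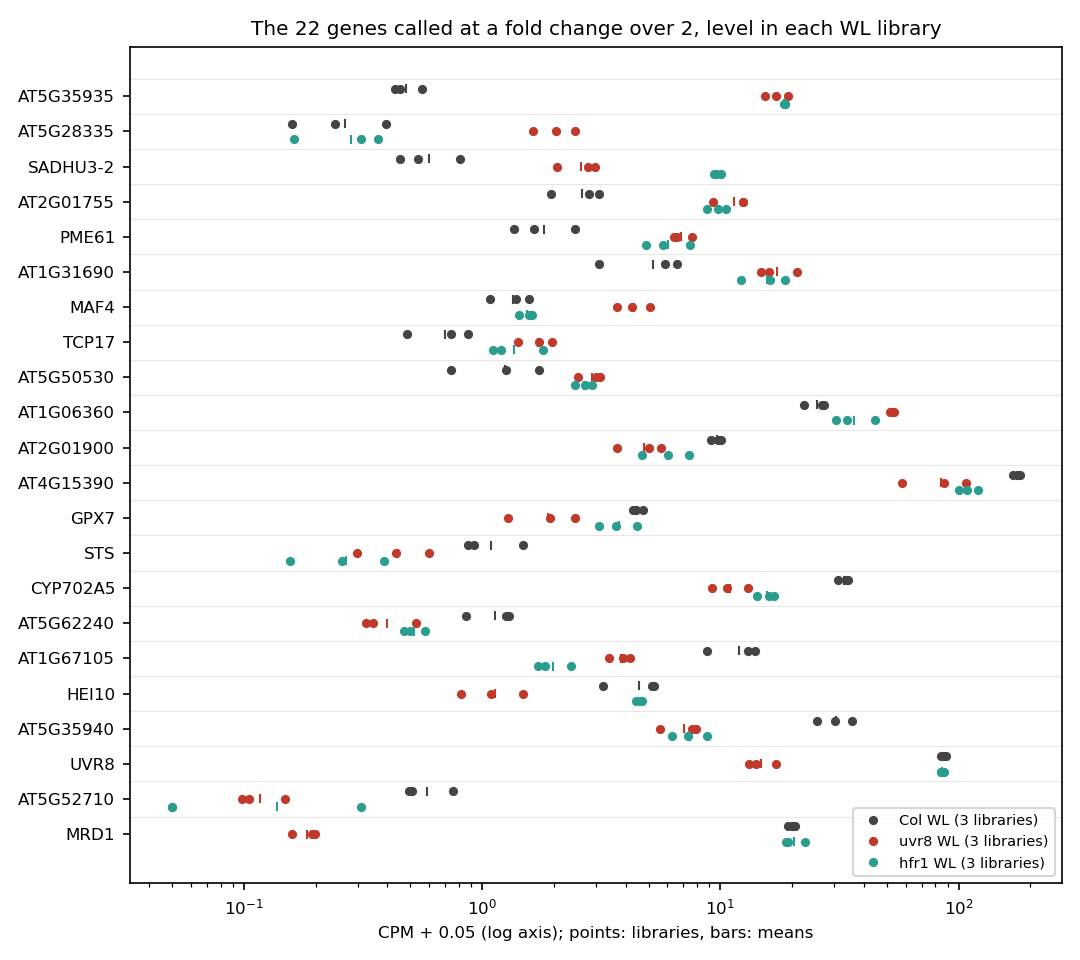
Levels of the 22 genes called at a fold change over 2, as CPM with 0.05 added on a log axis, in the 3 WL libraries of Col (grey), *uvr8* (red) and *hfr1* (green), with short bars for means. The *uvr8* and Col points of each gene do not overlap, and for *AT5G35935* the *hfr1* points at 18.4 to 18.7 CPM lie with those of *uvr8*.

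*CYP702A5* (AT4G15393), a cytochrome P450, measured 13.04, 10.7 and 9.21 CPM in *uvr8* and 31.1, 34.4 and 33.6 CPM in wild type, and fell by 1.59 ± 0.23 on the log2 scale (adjusted p = 3.1e-04). *AT4G15390*, an acyltransferase of the HXXXD family whose gene lies 9627 bases away, measured 108, 58.1 and 86.8 CPM in *uvr8* and 180, 169 and 177 CPM in wild type, a log2 fold change of -1.06 ± 0.20 (adjusted p = 0.019). The call of *AT4G15390* was lost in 4 of the 6 fits with 1 library left out, and without the second *uvr8* library, where it was lowest, the adjusted p was 0.19. In *hfr1* the levels were 14.2 to 16.8 CPM for *CYP702A5* and 100 to 120 CPM for *AT4G15390*, below the wild-type WL libraries for both genes. *CYP702A6*, the P450 gene on the far side of *CYP702A5*, gave -0.996 with an adjusted p of 0.85.

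*GPX7* (AT4G31870) encodes a chloroplast glutathione peroxidase, an enzyme that removes peroxides, and is induced by UV-B. In WL it measured 2.41, 1.24 and 1.87 CPM in *uvr8* and 4.37, 4.25 and 4.68 CPM in wild type, a log2 fold change of -1.28 ± 0.23 (adjusted p = 0.0079). Here *hfr1* stood at 4.43, 3.03 and 3.60 CPM. The call was lost without wild-type library 3 and without *uvr8* library 2 or 3, with an adjusted p of up to 0.11. *AT1G57770*, an oxidoreductase, measured 46.4, 39.8 and 48.0 CPM in *uvr8* and 60.1, 59.5 and 66.9 CPM in wild type, which is -0.47 on the log2 scale (adjusted p = 0.030), and up to 0.28 with 1 library left out. *STS* (AT4G01970), annotated as a stachyose synthase, an enzyme of raffinose-family sugars, measured 0.548, 0.248 and 0.384 CPM in *uvr8* and 0.824, 1.44 and 0.871 CPM in wild type (log2 fold change -1.41, adjusted p = 0.046), and *AT5G52710*, of a copper transport protein family, 0.0548, 0.0992 and 0.0480 CPM against 0.444, 0.459 and 0.708 CPM. For *AT5G52710* this is 4 counts over 3 libraries against 28, a ratio of 8.05 with an exact interval of 2.82 to 31.6. The call of *AT5G52710* was lost without any 1 library, and that of *STS* in 5 of these 6 fits. *AT2G01900*, related to DNase I, measured 5.59, 3.62 and 4.99 CPM against 9.699, 10.0 and 9.09 CPM, a log2 fold change of -1.02 (adjusted p = 0.0029). *AT5G26270*, of unknown function, measured 29.1, 21.5 and 23.98 CPM in *uvr8* and 48.6, 39.1 and 49.4 CPM in wild type, at -0.88 (adjusted p = 0.0045). Of the 6 fits with 1 library left out, the last pair lost the call in that without the second *uvr8* library, with adjusted p values of 0.061 and 0.070. *AT5G26270* was higher in *hfr1* than in wild type, at 64.3 to 68.9 CPM. Beside the same wild-type libraries, *hfr1* was lower for *AT1G57770* (51.9 to 57.7 CPM) and *STS* (0.106 to 0.337 CPM). It was also lower for *AT5G52710* (0 to 0.261 CPM) and *AT2G01900* (4.64 to 7.37 CPM).

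Of the 492 genes tested within 1 Mb of *UVR8*, 3 were called, *UVR8* among them. The other 2 are 0.407% of the remaining 491 genes, beside 0.172% of all genes tested. *MAF4* (AT5G65070), a MADS-box repressor of flowering related to *FLC*, lies 432694 bases from *UVR8*. It measured 3.62, 4.22 and 5.04 CPM in *uvr8* and 1.33, 1.03 and 1.52 CPM in wild type, a log2 fold change of 1.72 ± 0.27 (adjusted p = 0.0014), while *hfr1* stood at 1.37, 1.57 and 1.52 CPM with wild type. Its neighbours of the same family, *MAF3* and *MAF5*, gave -0.0094 and 0.48 with adjusted p values of 1.0 and 0.96, and *FLC*, on the other arm, gave 0.64 (adjusted p = 0.28). *AT5G62240*, annotated as a cell-cycle-regulated microtubule-associated protein, lies 549633 bases away on the other side. It measured 0.274, 0.298 and 0.480 CPM in *uvr8* and 1.204, 0.804 and 1.25 CPM in wild type, a log2 fold change of -1.60 ± 0.35 (adjusted p = 0.049). It shares 82 bases with *ERL1*, a receptor kinase of stomatal patterning on the other strand, which gave 0.48 (adjusted p = 0.75). The call of *AT5G62240* was lost in 5 of the 6 fits with 1 library left out, with an adjusted p of up to 0.28. In *hfr1* this gene stood at 0.418 to 0.528 CPM, below wild type.

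*PME61* (AT3G59010), a pectin methylesterase that modifies the primary wall, measured 7.56, 6.35 and 6.52 CPM in *uvr8* and 2.41, 1.61 and 1.31 CPM in wild type, a log2 fold change of 1.95 ± 0.39 (adjusted p = 0.028). *AT1G31690*, of the copper amine oxidase family, measured 20.9, 14.7 and 15.9 CPM against 5.83, 6.55 and 3.05 CPM, a log2 fold change of 1.74 ± 0.38 (adjusted p = 0.046). Both lost the call when any 1 library was left out, with adjusted p values of up to 0.22 and 0.38, and in *hfr1* they stood at 4.84 to 7.39 CPM and 12.1 to 18.7 CPM. *AT1G06360*, a fatty acid desaturase, measured 53.2, 53.7 and 51.8 CPM in *uvr8* and 26.8, 27.2 and 22.4 CPM in wild type, a log2 fold change of 1.05 ± 0.19 (adjusted p = 0.0097). In *hfr1* this gene stood at 30.5 to 44.6 CPM, above wild type.

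The rises below a fold of 2 were named after their values were seen. *LTL1*, a GDSL-type lipase, measured 76.8, 68.4 and 88.7 CPM in *uvr8* and 38.0, 43.2 and 37.5 CPM in wild type (log2 fold change 0.98 ± 0.20, adjusted p = 0.027). *GL2*, a homeodomain regulator of trichome and root-hair cell fate, measured 21.1, 18.4 and 18.9 CPM against 10.2, 10.9 and 8.71 CPM (0.97 ± 0.21, adjusted p = 0.046). *CYP77B1* and *CYP86A4* are cytochrome P450 enzymes, the latter a fatty acid hydroxylase of cutin monomer synthesis. *CYP77B1* measured 17.0, 21.6 and 17.56 CPM against 9.002, 13.5 and 7.19 CPM (0.92 ± 0.17, adjusted p = 0.0079), and *CYP86A4* 17.42, 19.6 and 20.9 CPM against 10.97, 8.61 and 12.2 CPM (0.86 ± 0.18, adjusted p = 0.032). *PEL3*, an acyltransferase required for an intact leaf cuticle, measured 54.4, 67.6 and 63.4 CPM against 35.4, 43.1 and 29.2 CPM (0.79 ± 0.16, adjusted p = 0.037). In each of these 5 genes the *uvr8* libraries were all above the wild-type libraries. Set beside the same wild-type libraries, *hfr1* stood at 53.7 to 77.3 CPM for *LTL1*, 15.8 to 18.6 CPM for *GL2*, 14.4 to 15.4 CPM for *CYP86A4* and 46.9 to 56.1 CPM for *PEL3*, above wild type, and at 12.1 to 16.1 CPM for *CYP77B1*, overlapping it. The call was lost with any 1 library left out for *LTL1*, *GL2* and *CYP86A4*, in 4 of the 6 fits for *PEL3* and in 3 for *CYP77B1* and *AT1G06360*, with adjusted p values of up to 0.33, that of *PEL3* without the third wild-type library.

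*TCP17*, *TCP15* and *YAB2*, transcription factors of leaf growth, were also higher in *uvr8*. *TCP17* measured 1.37, 1.69 and 1.92 CPM in *uvr8* and 0.824, 0.689 and 0.436 CPM in wild type (log2 fold change 1.36 ± 0.29, adjusted p = 0.046). *TCP15* measured 12.9, 13.8 and 12.8 CPM against 8.05, 8.10 and 8.06 CPM (0.70 ± 0.13, adjusted p = 0.0079), and *YAB2*, a YABBY factor of the lower leaf side, 14.5, 14.2 and 17.1 CPM against 10.7, 9.99 and 12.1 CPM (0.48 ± 0.10, adjusted p = 0.028). *AT5G50530*, with CBS and PB1 domains, gave 1.24 (adjusted p = 0.046), and 99.1% of its 31-base words occur elsewhere in the genome, so that its counts may belong in part to a copy. The last 4 rises were between 0.53 and 0.75 on the log2 scale. They were *scpl35*, a serine carboxypeptidase-like gene (0.75), *AT3G05600*, a hydrolase (0.73), *AT2G40460*, a transporter of the major facilitator family (0.65), and *AT2G05810*, an ARM-repeat protein (0.53) whose gene overlaps *AT2G05812* on the other strand. Each of *TCP17*, *TCP15*, *YAB2*, *AT5G50530* and these 4 lost the call in at least 3 of the 6 fits with 1 library left out, with adjusted p values of up to 0.42, that of *AT2G40460* without the third wild-type library. In *hfr1*, *TCP17* stood at 1.06 to 1.74 CPM, *TCP15* at 9.40 to 15.2 CPM and *YAB2* at 12.4 to 14.0 CPM. These levels were above the same wild-type libraries, as were those of *AT5G50530*, *scpl35*, *AT2G40460* and *AT2G05810* in *hfr1*, while *AT3G05600* overlapped them.

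To see the outer-surface genes in their context, 2 lists were drawn up after the data were seen, so they are given by their counts alone. Of 32 measured genes of cuticle formation, such as the wax and cutin enzymes and their regulators, 29 had a value above 0 and 3 were called, all higher, with a median log2 fold change of 0.21. For all genes tested, 10637 of 20926 were above 0 and the median was 0.0028. *MYB106*, an epidermal regulator, and *PDF1*, a marker of the outermost cell layer, gave 0.81 and 0.75 with adjusted p values of 0.11 and 0.12. Among 28 measured genes of trichome and stomatal patterning, 25 were above 0 and 1 was called (*GL2*), with a median of 0.38. *TMM*, a receptor of the stomatal lineage, measured 0.71 (adjusted p = 0.13), *MYB23*, a trichome factor, 0.89 (adjusted p = 0.23), and *ERL2* -0.11 (adjusted p = 0.99). Without the second *uvr8* library the medians were 0.24 and 0.36, with 32 of 32 and 24 of 28 genes above 0 and no gene called. Without the second wild-type library the number of cuticle genes above 0 was 20 of 32, with a median of 0.12. The summed level of the 29 listed trichome and stomatal genes, 1 of them below the filter, was 402 to 424 CPM in *uvr8*, 357 to 364 CPM in wild type and 403 to 411 CPM in *hfr1*. The summed level of guard-cell markers was 124 to 145 CPM in *uvr8* and 96.1 to 120 CPM in wild type, without overlap, and *hfr1* stood at 138 to 150 CPM. Of these markers 7 of 7 had a value above 0 with a median of 0.33 and none passed the test. An unadjusted p under 0.05 was found in 4, beside 6.8% of all genes tested. In +FR 5 of the 7 were above 0 between the same genotypes, with a median of 0.089. The share of guard cells in the samples was not measured, and its part in these values was not tested.

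The L1 box is the sequence bound by epidermal homeodomain factors, here searched as TAAATGCA and TAAATGTA on both strands of the 250 bases before the annotated start. It was found before 4 of the 21 genes that rose (19%), before 0 of the 15 that fell and before 4.5% of the 20813 tested genes with a full window. Besides *AT5G35935* above, these were *CYP77B1*, where it begins 47 bases before the start, *AT1G06360* and *AT3G05600*. The G-box CACGTG, which HY5 and the PIF factors bind, was found before none of the 36 genes and before 7.32% of all. A match here is a match of letters only. The windows of the first pair are shown with the box in capitals, on the opposite strand for *AT1G06360*.
CYP77B1 upstream, chr1:3901700-3901949, plus strand: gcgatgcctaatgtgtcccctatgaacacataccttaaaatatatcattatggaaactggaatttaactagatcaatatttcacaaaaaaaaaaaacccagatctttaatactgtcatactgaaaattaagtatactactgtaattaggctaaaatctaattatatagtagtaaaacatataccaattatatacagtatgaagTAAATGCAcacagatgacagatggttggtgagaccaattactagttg
AT1G06360 upstream, chr1:1940497-1940746, minus strand: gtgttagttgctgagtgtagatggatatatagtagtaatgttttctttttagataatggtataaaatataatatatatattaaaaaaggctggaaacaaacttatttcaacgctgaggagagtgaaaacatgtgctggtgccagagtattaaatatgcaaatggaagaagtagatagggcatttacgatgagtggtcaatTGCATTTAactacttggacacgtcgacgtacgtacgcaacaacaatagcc

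Apart from *UVR8* itself, the genes of the UVR8 pathway were not called in WL. *COP1*, which encodes the E3 ligase bound by active UVR8, measured 41.7 ± 2.41 CPM (SD, n = 3) in *uvr8* and 42.5 ± 2.60 CPM in wild type, a log2 fold change of -0.029. The COP1 partners *SPA1*, *SPA2*, *SPA3* and *SPA4* lay between -0.04 and 0.06. *HY5* gave 0.09 and its homologue *HYH* -0.26, with adjusted p values of 0.98 and 0.68. *RUP1* and *RUP2* gave 0.02 and -0.16, and *BBX24* and *BBX25*, B-box factors that restrain the response, -0.21 and -0.18. The list held 1 lower gene called (*UVR8*) of 12, with a median of -0.035.

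The flavonol and UV-B acclimation list held 1 called gene of 21, *GPX7*, with a median of -0.012. *CHS*, the first enzyme of flavonoid synthesis, gave 0.10 and *FLS1*, flavonol synthase, 0.16, with adjusted p values of 0.98 and 0.96. *TT7* and *UGT89C1* were higher at an unadjusted p of 0.031 and 0.033, with adjusted p values of 0.67. *ELIP1* and *ELIP2*, early light-induced proteins, gave -0.46 and -0.38, with adjusted p values of 0.79 and 0.94. No gene of the shade and elongation list (22 genes, median -0.054), of the other photoreceptors (12, 0.027), of the phenylpropanoid list (12, -0.0024) or of the anthocyanin list (11, -0.38) was called. The anthocyanin median was -0.051 without the third wild-type library and -0.69 without the first *uvr8* library. In the shade list, *PIL1* gave 0.39, *ATHB2* 0.11, *PIF4* -0.15 and *PIF5* -0.20, with adjusted p values of 0.94, 0.96, 0.98 and 0.67.

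Other lists with no member called held values mostly on 1 side of 0. For all genes tested, 10637 of 20926 were above 0 and 6.8% had an unadjusted p under 0.05. Aliphatic glucosinolate genes, which make defence compounds of the cabbage family, were above 0 in 14 of 15, with a median log2 fold change of 0.32, and 5 had an unadjusted p under 0.05. The largest value was that of *CYP79F1*, an enzyme of chain-elongated glucosinolates, at 46.1 CPM in wild type and 91.3 CPM in *uvr8* (0.99, adjusted p = 0.51). The median was 0.15 without the third wild-type library and 0.51 without the second. Genes of the light-harvesting complexes and the Rubisco small subunit were below 0 in 20 of 21, with a median of -0.16, or -0.29 without the third and -0.093 without the second wild-type library, and *CAB2* (-0.45, adjusted p = 0.59) had an unadjusted p under 0.05. Their summed levels overlapped between genotypes, at 87560 to 111460 CPM in *uvr8* and 93648 to 111840 CPM in wild type. Sulfur deficiency genes were above 0 in 10 of 12, with a median of 0.24, which was 0.064 without the third wild-type library and 0.58 without the second. Phosphate starvation genes were above 0 in 8 of 10, with a median of 0.17 (0.11 to 0.22 over the alternatives). Cold genes were below 0 in 7 of 9, with a median of -0.29 that became 0.16 without the third wild-type library. Of 16 clock genes none was called, and 10 were below 0, with a median of -0.11. An unadjusted p under 0.05 was found for 8 (50%), 6 lower and 2 higher, beside 6.8% of all genes tested. Within the list, *CCA1*, *LHY* and *LNK2* lay at -0.28, -0.28 and -0.49, with *TOC1* and *ELF3* at 0.24 and 0.20. Their adjusted p values were 0.28 to 0.73. These genes are only a part of the list, and a pattern by time of day was not tested. With 1 library left out, 3 to 9 of the 16 clock genes had an unadjusted p under 0.05. For *uvr8* against wild type in +FR, phosphate genes had a median of -0.083, with 3 of 10 above 0. Cold genes had 0.34 there, with 8 of 9 above 0, and clock genes -0.012, with 8 of 16 above 0. The glucosinolate, light-harvesting and sulfur lists kept their side of 0 in +FR, with medians of 0.18, -0.14 and 0.23.

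**Figure D3:**
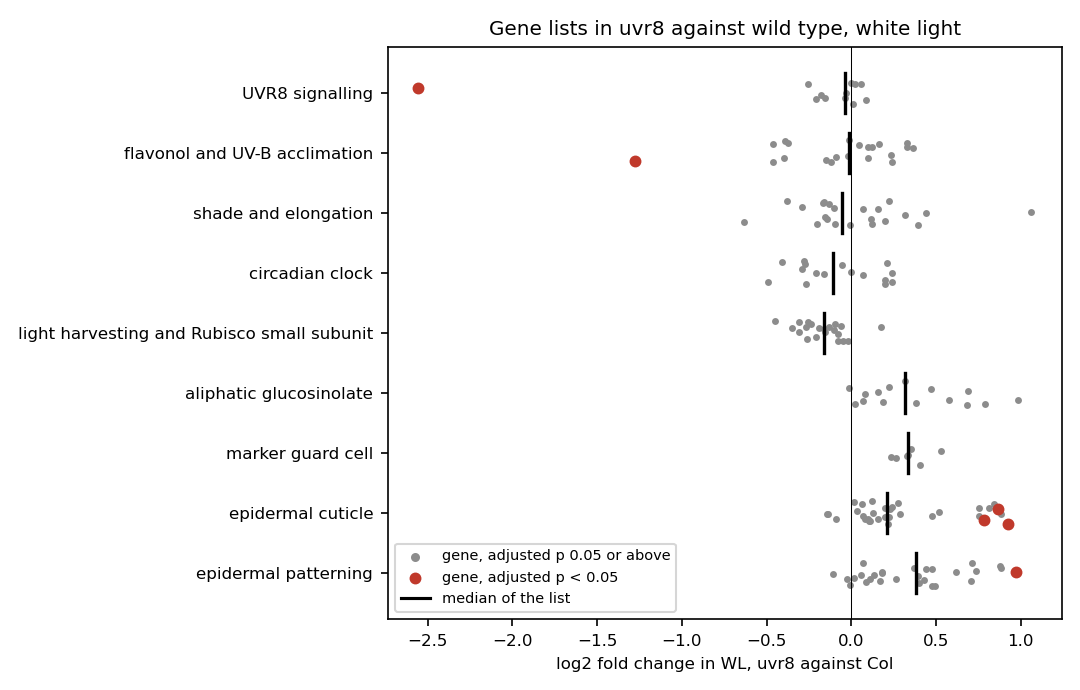
Log2 fold change of *uvr8* against Col in WL for the genes of 9 lists, with 1 point a gene, red where the adjusted p is under 0.05, and a black bar at the median of each list. The red points are *UVR8*, *GPX7* and, in the 2 epidermal lists that were drawn up after the data were seen, *CYP86A4*, *CYP77B1*, *PEL3* and *GL2*.

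The defence and storage lists rested on the second *uvr8* library. The median of 18 salicylic acid defence genes was 0.45 with it and -0.66 without it, and that of 7 measured seed storage genes was 4.04 with it and -0.98 without it. Hypoxia genes gave -0.082 and -0.86, and 0.34 without the third wild-type library, where their summed level was 516 CPM. None of these genes was called in these fits. No gene was called either in the lists of jasmonate, rapid stress, cold, abscisic acid, heat, phosphate, iron, nitrate, sulfur and sugar responses or among the markers of root, mesophyll, meristem and senescence.

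The same genotypes were also compared in +FR, in 6 other libraries, which belonged to the same model and shared its estimate of the spread but entered neither mean of the WL comparison. All 36 genes kept their direction and 21 passed the test there, which is 58.3% of the 36 and 42.9% of the 49 genes called in +FR (0.234% of those tested). How many of all tested genes kept their direction between WL and another light condition was not counted. Of the 22 genes with a fold change over 2 in WL, 14 were among them. *MRD1* measured 0.155, 0.397 and 0.104 CPM in *uvr8* and 18.4, 18.23 and 23.8 CPM in wild type (log2 fold change -6.51). *AT5G35935* measured 16.0, 17.8 and 21.1 CPM against 0.326, 0.528 and 0.483 CPM (5.34). *LTL1* measured 71.8, 76.3 and 83.7 CPM against 35.5, 35.6 and 30.9 CPM (1.19, adjusted p = 0.0027), *AT1G06360* gave 1.32 (adjusted p = 5.1e-04), *TCP17* 1.79 (adjusted p = 0.0043) and *CYP77B1* 0.95 (adjusted p = 0.0043). The libraries of the groups did not overlap in any of these, which was not counted over all genes in +FR. *GL2* gave 0.58 (adjusted p = 0.23), *CYP86A4* 0.68 (adjusted p = 0.083) and *PME61* 1.37 (adjusted p = 0.11), with overlap of the groups. *AT2G05810* gave 0.53 in WL and 0.0045 in +FR, and *AT5G52710* -2.88 and -1.24. The count of 21 was 11 without the second *uvr8* WL library or the first wild-type WL library, and 12 and 13 without the third wild-type and the third *uvr8* one.

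**Figure D4:**
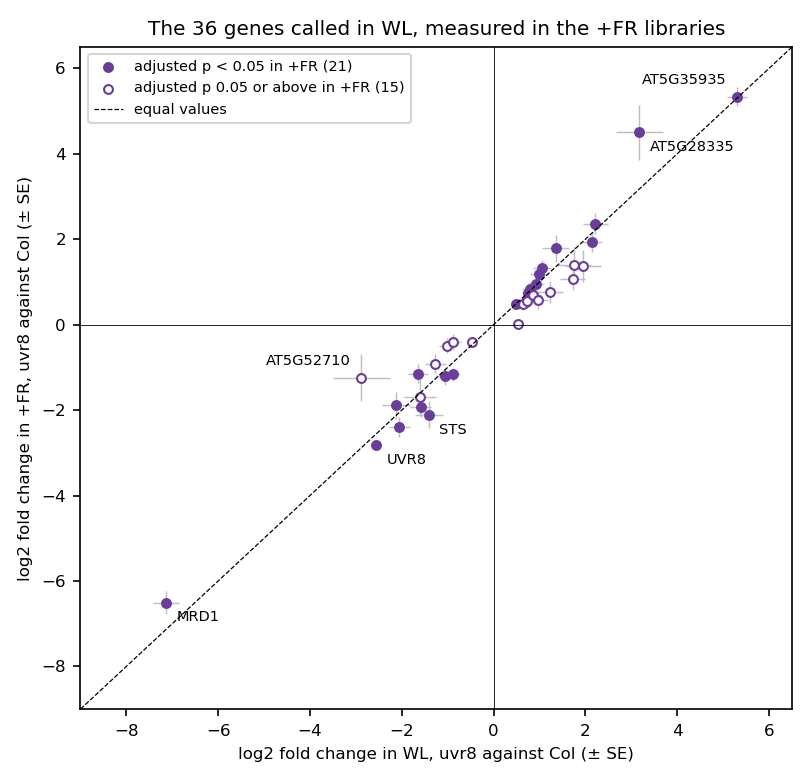
Log2 fold change of *uvr8* against Col in +FR (y axis) against that in WL (x axis) for the 36 genes called in WL, with SE bars and a dashed line of equal values. All 36 points share the sign of the WL value, and the 21 filled points passed the test in +FR.

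The difference between the genotype effects in +FR and WL was tested as an interaction. No gene passed an adjusted p of 0.05 with edgeR, where 719 genes had an unadjusted p under 0.05 (3.44%), 3 of them among the 36. By DESeq2's Wald test 1 gene passed, the seed storage gene *SESA3*, whose level rested on the second *uvr8* WL library, and which was named after its value was seen. A test that found no interaction does not show that the effects are equal. In +UVB and +FR+UVB, where the receptor is active in wild type and 48.6% and 47% of genes were called between the genotypes, 33 and 31 of the 36 genes kept their direction and 28 and 29 were called in it. *GPX7* was at -5.72 in +UVB and *AT1G57770* at -2.29, while *AT5G52710* and *AT2G40460* lay in the opposite direction from WL, at 1.69 and -1.90. For *MRD1*, *HEI10*, *UVR8* and *AT5G35935* all 12 *uvr8* libraries were outside the range of the 12 wild-type libraries, as were those of 12 others of the 36. Among all genes tested this held for 28 (0.134%).

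**Figure D5:**
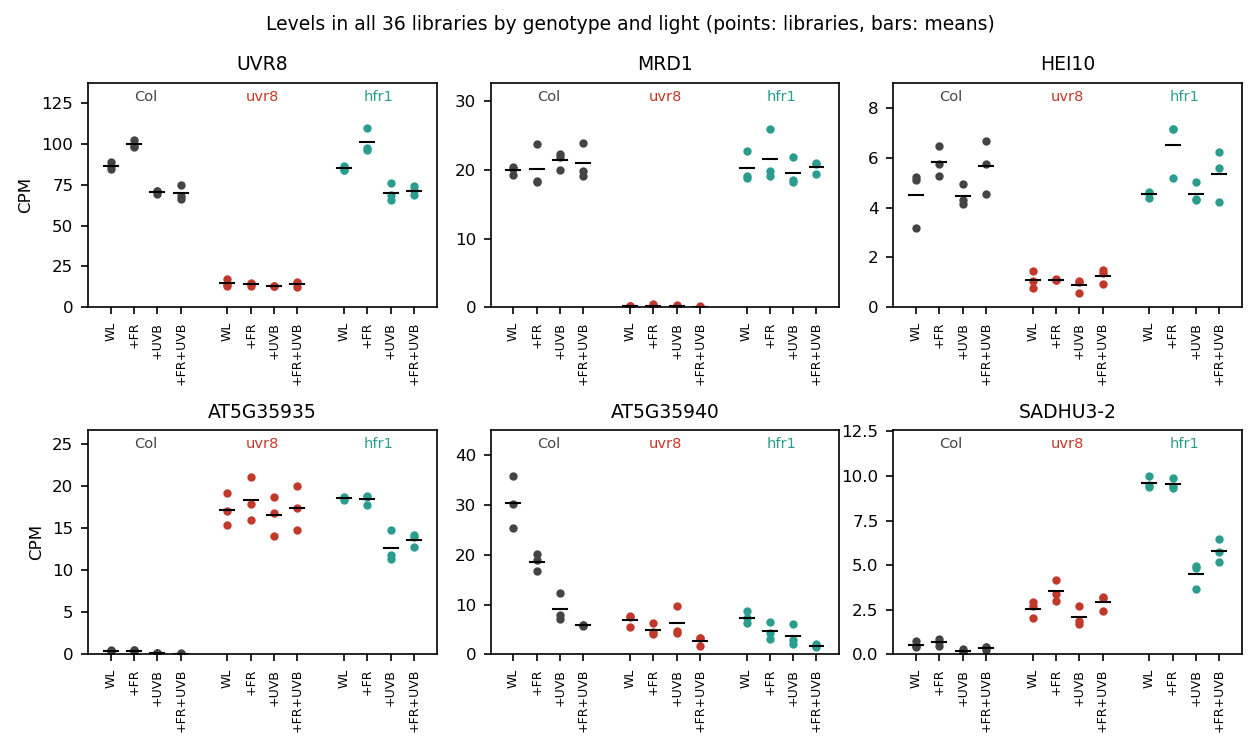
CPM of *UVR8*, *MRD1*, *HEI10*, *AT5G35935*, *AT5G35940* and *SADHU3-2* in all 36 libraries, by genotype (Col grey, *uvr8* red, *hfr1* green) and light condition, with bars for the means of 3 libraries. *MRD1* lies at 0 to 0.397 CPM in every *uvr8* library, and *AT5G35940* in Col lies at 25.4 to 35.8 CPM in WL and 5.68 to 5.96 CPM in +FR+UVB.

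A last comparison asked whether genes that respond to UV-B were already different in WL. The 1731 genes raised by UV-B in wild type (+FR+UVB against +FR, fold change over 2 and adjusted p under 0.05; 8.27% of those tested) had a median log2 fold change of -0.039 between *uvr8* and wild type in WL. Of them 1028 were below 0, against 10284 of all 20926. Over all genes tested 36 were called (0.172%). Of the 1731 genes 4 were called, *AT2G40460* higher and *AT1G57770*, *GPX7* and *AT5G62240* lower. In +FR the median of the 1731 genes was 0.08, on the other side of 0. The wild-type +FR libraries also served to choose the list, which by itself favours values above 0 there. No conclusion is drawn from that median. The 1785 genes lowered by UV-B (8.53%) had a median of 0.038 in WL, with 3 called higher and 3 lower. Over all genes tested, 21 were called higher (0.1%) and 15 lower (0.0717%).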

How the data were processed

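The raw counts deposited by the authors, whole numbers per gene from reads aligned to TAIR10 with TopHat2 2.0.13 and counted with HTSeq 0.6.1 (versions from the submitters' processing notes), were analysed. The authors also deposited a normalized signal for 20926 genes, which equals the TMM-scaled CPM within 0.0283%, and these genes served as the filter. All 36 libraries entered 1 quasi-likelihood model with 12 group coefficients (R 4.3.3, edgeR 4.0.16 in its legacy form), and the Benjamini-Hochberg adjustment ran over the whole set of genes. Total counts per library were 9749710 to 21175260. Intervals and the floor of 3 counts cover counting error only, and p-values measure the spread between samples from separate plates.

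Genes were named by these rules: *UVR8*; the 15 largest rises and falls over a fold change of 2 without overlap and with a mean of at least 50 normalized counts; the 5 lowest p-values in each direction; called list members; and called genes within 1 Mb of *UVR8*. Of the 36, 17 were named after their values were seen. They were *AT5G52710*, *STS*, *AT3G42806*, *AT5G26270*, *AT1G57770*, *TCP17* and the genes that rose by less than a fold of 2. Members and lists were chosen with earlier results of these data known. Gene names and coordinates come from RefSeq's TAIR10.1. The fit was tested on simulated counts in which no library stood apart as a whole. That setting does not cover the second *uvr8* or the third wild-type WL library.

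The alternatives were library size without TMM, DESeq2 1.42.0, edgeR's likelihood ratio and current quasi-likelihood tests, other gene filters, a fold change of 1.5, fewer groups in the fit, the replicate number as a block, and leaving out each of the 6 libraries.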

Additional observations from a re-analysis of the deposited data

How the results depend on the processing

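The count of 36 genes was 63 with edgeR's likelihood ratio test, 23 when only the 24 wild-type and *uvr8* libraries were fitted, 11 when only the 6 WL libraries were, and 12 to 27 with 1 of the 6 left out. The 22 genes over a fold change of 2 became 9 in the fit of 6 libraries and 11 to 18 with 1 left out. The 21 genes also called in +FR became 32 with DESeq2, 37 with the likelihood ratio test, 8 with WL and +FR libraries alone and 11 to 17 with 1 left out. The interaction gave 0 genes in each alternative except DESeq2, which gave 1. None of the 36 genes changed direction in any of the 16 alternatives, and 6 were called in all of them. The median of the UV-B-raised genes lay between -0.06 and -0.023 with the list chosen anew in each, and was -0.017 for the same genes without TMM. Fewer libraries in a fit leave fewer degrees of freedom; otherwise the cause was not tested.

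Same-numbered libraries deviated with correlations of 0.383, -0.0707 and -0.261 across genes, and the third wild-type library correlated best with the second *uvr8* library (0.387). Both of these libraries also stood apart in the summed levels above, so the correlations cannot decide whether the numbers pair the samples. The main fit did not pair them. With the replicate number as a block, 31 and 18 genes were called without and with the fold-change minimum, 18 of the 31 also in +FR, 0 for the interaction, the UV-B-raised median was -0.040 and *UVR8* gave -2.56.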

Other observations

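In +FR, 28 genes were called between *uvr8* and wild type that were not called in WL, and 25 of them had the same sign in WL. They were named after their values were seen. Of the 28, 6 belong to the 2 epidermal lists, which hold 0.287% of all genes tested. These lists were drawn up after the data were seen, so no conclusion is drawn from that count. *MYB106*, which acts in trichome branching and cuticle formation, gave a log2 fold change of 1.35 in +FR (adjusted p = 9.7e-04) and 0.81 in WL (adjusted p = 0.11). *GIS*, a zinc-finger factor of trichome initiation, gave 1.88 and 0.88. *TMM*, *EPF2* and *SPCH*, a receptor, a secreted peptide and the transcription factor that starts the stomatal lineage, gave 1.05, 1.40 and 1.14 in +FR and 0.71, 0.70 and 0.61 in WL. *PDF1*, a marker of the outermost cell layer, gave 0.99 and 0.75. The difference between the light conditions did not pass the test for any of these 6 genes.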
